A study of Mus musculus with 8 samples.

Results

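Interleukin-10 (IL-10), transforming growth factor beta (TGF-beta) and their receptors were examined in mouse bone marrow-derived dendritic cells (BMDCs), antigen-presenting cells grown from marrow. The 7 genes were chosen by name: the cytokine genes Il10 and Tgfb1, the receptor genes Il10ra, Il10rb, Tgfbr1 and Tgfbr2, and Tgfbi, which encodes a matrix protein named for its induction by TGF-beta. All 7 were found among the 55376 genes of the deposited read count table, and all 7 were among the 14382 genes that passed a filter on low counts. The series belongs to work on microbiome modulation and immune checkpoint blockade (PD-1 and PD-L1) in multiple myeloma. Cells of the PM group had been given heat-inactivated P. melaninogenica overnight, and those of the PH group heat-inactivated P. heparinolytica for the same time, with 3 samples in each group. All samples thus received bacteria, no untreated cells were analysed here, and the strain, sex and age of the mice were not stated in the labels. Samples are named by treatment and by the sample id in the labels, which is 1, 3 or 4 in both groups.

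IL-10 restrains inflammatory gene expression in myeloid cells. It binds a receptor made of IL10RA, the chain specific to IL-10, and IL10RB, a chain shared with other cytokines of the family, and signals through JAK1, TYK2 and STAT3. TGF-beta is secreted in a latent form that must be activated outside the cell, and it then signals through TGFBR2 and TGFBR1 to SMAD proteins. Dendritic cells that make either cytokine are known for their part in tolerance and in steering T cell differentiation.

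Total counts ranged from 11624367 (PH 3) to 40233148 (PH 4). The dendritic cell genes Cd74, Ccr7, Zbtb46 and Flt3 were detected in every sample, while Cd209a was at 0 in all 6. The 12 dendritic cell markers together reached 8758 to 10454 CPM (read counts scaled to library size) with PM and 8975 to 10887 CPM with PH. Most of the sum came from Cd74 (mean 3817 CPM with PM and 3793 CPM with PH) and Ccr7 (3911 and 4049 CPM). Flt3 had means of 55.2 and 52.6 CPM, so sums of different lists do not give shares of cell types. By edgeR 0 of the 10 tested passed (2 had an unadjusted p under 0.05, and 1 passed by DESeq2). Of all genes, 1890 of the 14382 tested by edgeR had an unadjusted p under 0.05, and 580 of 27765 passed by DESeq2. The 10 macrophage markers summed to 1223 to 1710 CPM with PM and 1072 to 1535 CPM with PH. The 10 neutrophil markers summed to 372 to 520 CPM with PM and 486 to 607 CPM with PH. Of all 58 marker genes tested, 1 rose and 2 fell (5.17%, against 2.34% of all genes tested), and with samples of the same id blocked together 5 rose and 9 fell (24.1%, against 15.3%). Without the block the falls were those of Csf3r of the neutrophil list (log2 fold change -0.96 ± 0.09 SE, adjusted p = 9.7e-04) and Pdgfrb of the stromal list (-0.70 ± 0.10, adjusted p = 0.00847) by edgeR. In the blocked fit 4 neutrophil markers fell and 0 rose, each lower with PM in 3 of 3 ids: Csf3r, S100a8 (-0.32 ± 0.05, adjusted p = 6.6e-06), S100a9 (-0.31 ± 0.05, adjusted p = 9.8e-06) and Camp (-0.50 ± 0.12, adjusted p = 0.00249). The median of the neutrophil list was -0.31 without the block. Not all of its tested genes were lower. Elane (0.59 ± 0.22), Mpo (0.18 ± 0.18), Ngp (0.02 ± 0.14) and Ltf (0.01 ± 0.22) had positive log2 fold changes without the block, and Ly6g had a negative one (-0.43 ± 0.41). None of these passed in either fit. Among macrophage markers 3 rose and 1 fell in the blocked fit, with Cd68 at 0.44 ± 0.05 (adjusted p = 6.2e-09), Apoe at 0.62 ± 0.15 (adjusted p = 0.00414) and Fcgr1 at -0.84 ± 0.29 (adjusted p = 0.0489). Among dendritic cell markers 1 rose and 2 fell in it, with Clec9a at 1.295 ± 0.32 (adjusted p = 0.00412), Irf4 at -0.28 ± 0.05 (adjusted p = 5.8e-05) and Irf8 at -0.14 ± 0.05 (adjusted p = 0.0412). Clec9a had few reads, at 1.43, 0.866 and 1.18 CPM in PM samples, against 0.328, 0.518 and 0.572 CPM in PH samples. Fcgr1 was also low, with means of 0.753 CPM with PM and 1.24 CPM with PH. Gzma of the NK cell list (-1.06 ± 0.16, adjusted p = 5.3e-06) and Pdgfrb also fell in the blocked fit, and Ppbp of the platelet list rose (0.39 ± 0.07, adjusted p = 1.1e-04). The part of these markers in the results on Il10 and Tgfb1 was not tested. Summed levels of the T cell markers were 21.98 to 33.8 CPM with PM and 23.6 to 36.1 CPM with PH, of the B cell markers 9.95 to 22.1 CPM with PM and 9.59 to 18.1 CPM with PH, and of the NK cell markers 5.16 to 8.90 CPM with PM and 6.98 to 11.99 CPM with PH. Those of megakaryocytes and platelets were 81.5 to 117 CPM with PM and 68.7 to 99.8 CPM with PH, of mast cells and basophils 109 to 126 CPM with PM and 114 to 118 CPM with PH, and of stroma 86.7 to 147 CPM with PM and 77.6 to 165 CPM with PH. In such bulk samples a change in the share of a cell type and a change in RNA per cell cannot be told apart.

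The cytokine Il10 was lower with PM. Its receptor chain Il10ra (lower) and the cytokine Tgfb1 (higher) passed with the shared sample ids as a block but not without, and the TGF-beta receptors passed in neither fit. With no pairing, 1 of the 7 genes passed the threshold of 0.05 on the adjusted p (Benjamini-Hochberg over all genes tested, from the quasi-likelihood test of edgeR), against 2.34% of all genes tested. With samples of the same id blocked together, 3 of the 7 passed, 1 higher and 2 lower, against 15.3% of all genes tested. The median log2 fold change (PM over PH) of the 7 was 0.0059, beside 0.0095 for all genes tested.

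**Figure D1:**
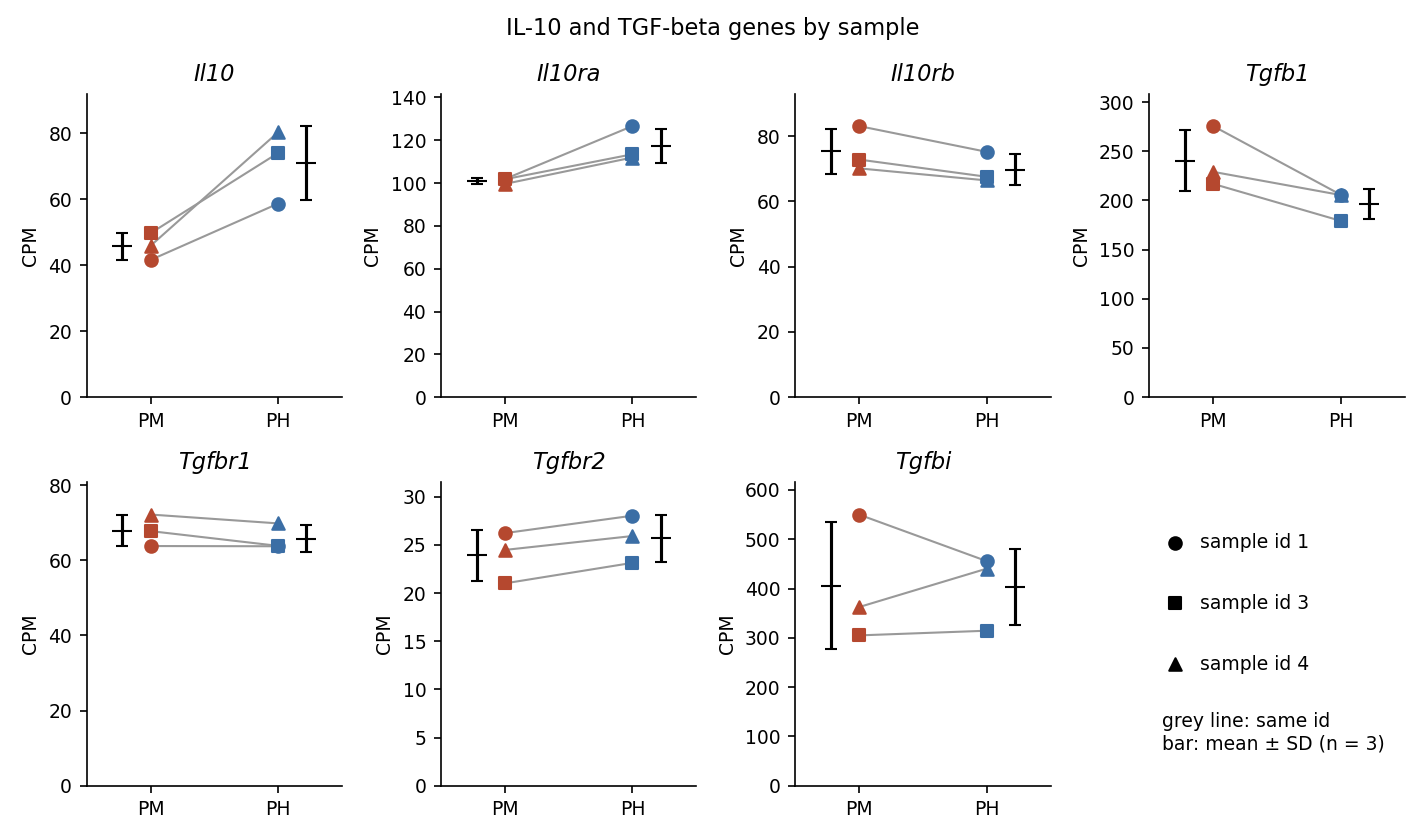
CPM of the 7 genes in each sample, with PM on the left and PH on the right of each panel. Symbols mark sample ids, grey lines join samples of the same id, and bars give the mean ± SD (n = 3). Il10 and Il10ra lay lower in all 3 PM samples than in any PH sample and Tgfb1 lay higher, while the groups overlapped for the other 4 genes. The share of all genes tested whose groups do not overlap was not computed, so this is a description only.

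Il10, the gene of the cytokine itself, lies on chromosome 1 (131019845 to 131024974, plus strand, GRCm38). It was at 41.6, 49.7 and 45.9 CPM in PM samples 1, 3 and 4, and at 58.7, 74.0 and 80.3 CPM in PH samples 1, 3 and 4. Every PM sample lay below every PH sample, and PH 1 was the PH sample nearest to the PM range. Il10 fell by 35.6% (log2 fold change -0.63 ± 0.12 SE, adjusted p = 0.0268, edgeR). The log2 differences within ids 1, 3 and 4 were -0.50, -0.58 and -0.81, and the blocked fit gave -0.64 ± 0.06 (adjusted p = 8.6e-10). The unblocked call depended on which samples were used. It was kept without PH 1 (adjusted p = 0.00611) and lost without PM 1, PM 3, PM 4, PH 3 or PH 4 (adjusted p = 0.0692, 0.0579, 0.118, 0.108 and 0.122), with the log2 fold change between -0.77 and -0.53.

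Il10ra encodes the ligand-binding chain specific to IL-10 (chromosome 9, 45253837 to 45269149, minus strand). It was at 102, 102 and 99.6 CPM in PM samples 1, 3 and 4, and at 127, 113 and 112 CPM in PH samples 1, 3 and 4. The 3 PM samples were close together and all lay below the PH samples. At a log2 fold change of -0.22 ± 0.06 (SE), it missed the threshold in the unblocked edgeR fit (adjusted p = 0.163) and passed in the blocked one (-0.21 ± 0.05, adjusted p = 0.00241).

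Il10rb encodes the shared second chain (chromosome 16, 91406235 to 91425834, plus strand), and 30.8% of its exon bases also belong to the predicted gene Gm21970, which had a count of 0 in every sample. It was at 83.1, 72.8 and 70.1 CPM in PM samples 1, 3 and 4, and at 75.2, 67.5 and 66.4 CPM in PH samples 1, 3 and 4. The groups overlapped, although PM was higher in 3 of 3 ids. Neither fit passed it (log2 fold change 0.11 ± 0.08, adjusted p = 0.640 without the block and 0.178 with it). The ratio of Il10ra to Il10rb counts, which does not depend on library scaling, was 1.23, 1.40 and 1.42 in PM samples, against 1.68, 1.68 and 1.69 in PH samples. The PH ratios were nearly equal and all 3 PM ratios lay below them. The log2 difference was -0.32, with p = 0.10 by an exact two-sided permutation test, the smallest that 3 against 3 samples allow (0.20 adjusted over the 4 ratios computed).

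**Figure D2:**
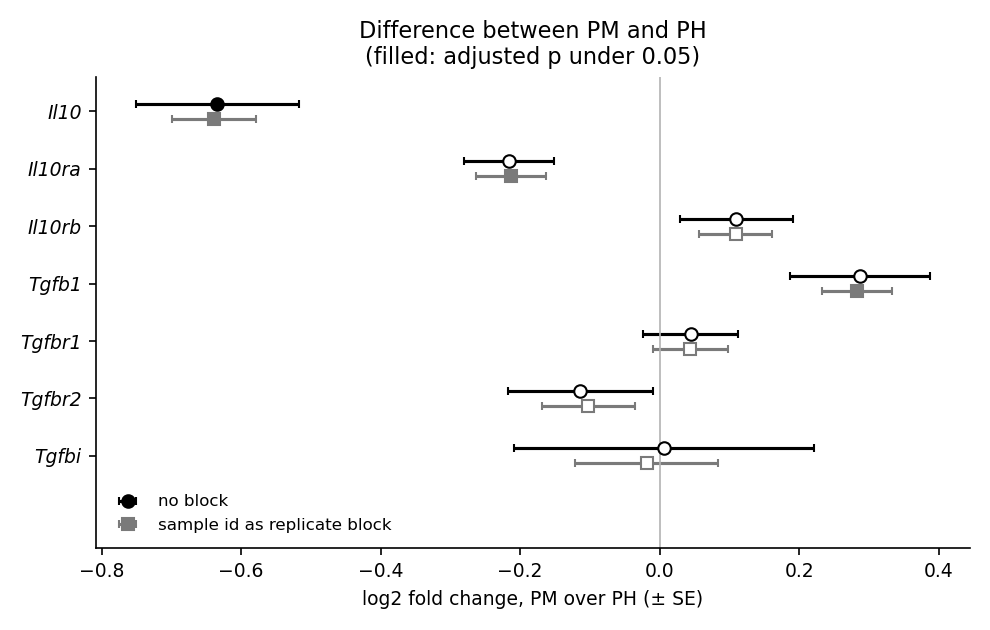
Log2 fold changes of the 7 genes, PM over PH, with bars of 1 SE. Circles are the fit without a block and squares the fit with the sample id as a block, and filled symbols passed an adjusted p of 0.05. Il10 lay at -0.63 and -0.64 and passed in both, Il10ra and Tgfb1 passed with the block, and the other 4 genes passed in neither.

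Genes acting downstream of the IL-10 receptor were represented by 7 signalling genes, all of which were tested, with a median of -0.16. Without the block 1 fell and the other 6 did not pass. Stat3, the main STAT of the IL-10 receptor, was at 518 ± 39.1 CPM with PM and 558 ± 38.2 CPM with PH (SD, n = 3) and did not pass (adjusted p = 0.652). With the block 4 of the 7 passed, all lower (of all genes tested, 2.34% passed without the block and 15.3% with it). They included the feedback inhibitors Socs3 (-0.50 ± 0.20 without the block, adjusted p = 0.311, and 4.5e-08 with it) and Socs1 (-0.29 ± 0.09, adjusted p = 0.194, and 5.4e-04 with it).

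For 13 genes known to be induced by IL-10 in myeloid cells, 12 were tested and 0 passed by edgeR without the block (6 had an unadjusted p under 0.05, and 0 passed by DESeq2). Of all genes, 1890 of the 14382 tested in that fit had an unadjusted p under 0.05, and 2.34% passed. By DESeq2 580 of 27765 passed. With the block 2 rose and 5 fell, Socs3 among them (15.3% of all genes tested passed in that fit). Mrc1, the mannose receptor, had the largest difference of the list, at 7.45, 4.86 and 5.80 CPM in PM samples, against 4.19, 2.42 and 4.23 CPM in PH samples. With a log2 fold change of 0.67 ± 0.22 (SE), Mrc1 missed the threshold without the block (adjusted p = 0.226, edgeR) and passed with it (3.2e-04). The median of the list was -0.12.

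Among 21 regulators of Il10 transcription, all tested, 1 fell and 0 rose. That gene was Map3k8, a kinase upstream of ERK signalling, at 20.0, 22.4 and 20.9 CPM in PM samples, against 26.8, 26.9 and 27.1 CPM in PH samples. Map3k8 had a log2 fold change of -0.35 ± 0.07 (adjusted p = 0.0449, edgeR), and the call was lost whichever sample was left out (adjusted p between 0.0618 and 0.197). With the block 3 rose and 4 fell (of all genes tested, 2.34% passed without the block and 15.3% with it). Besides Map3k8, the largest of these were the transcription factors Prdm1 (-0.34 ± 0.08, adjusted p = 0.0623, and 1.7e-04 with the block) and Irf4 (-0.27 ± 0.07, adjusted p = 0.0961, and 5.8e-05 with the block). The median of the list was -0.07.

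Few of the other cytokines of the IL-10 family and their receptor chains had enough reads for a test. Of 11 such genes, 3 were tested, with a median of 0.0047, and 5 (Il20, Il22ra1, Il22ra2, Ifnl2 and Ifnl3) had no read in any sample. None of the 3 passed by edgeR without the block (1 had an unadjusted p under 0.05, and 0 passed by DESeq2). Of all genes, 1890 of the 14382 tested in that fit had an unadjusted p under 0.05, and 580 of 27765 passed by DESeq2. The share of all genes tested that passed by edgeR was 2.34% without the block and 15.3% with it. Il22, a cytokine that acts mainly on epithelia, was at 1.53, 1.20 and 1.21 CPM in PM samples, against 2.96, 2.76 and 1.77 CPM in PH samples, and its difference was -0.90 ± 0.25 on the log2 scale (SE; adjusted p = 0.134, and 0.00385 with the block).

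**Figure D3:**
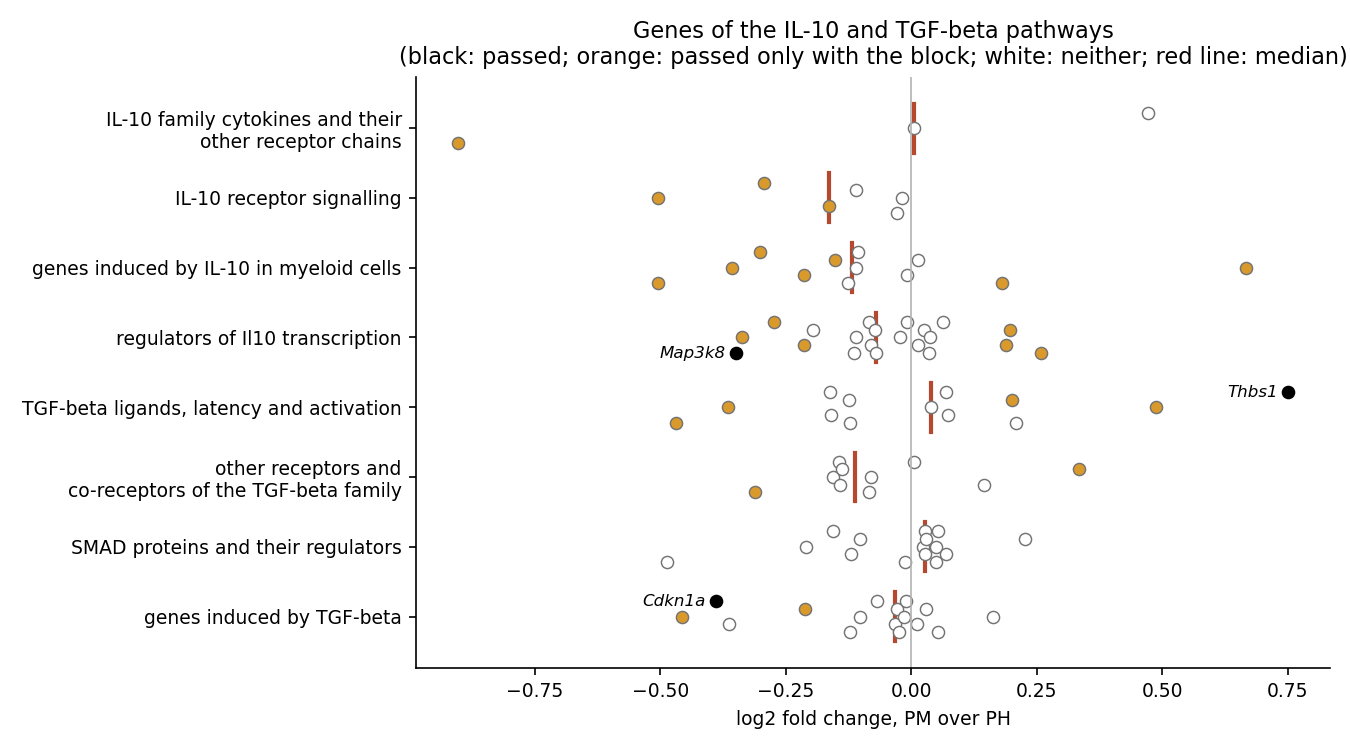
Log2 fold change, PM over PH, of the tested genes in each of the 8 IL-10 and TGF-beta pathway lists (1 point per gene; vertical red lines are list medians). Black points passed without the block and are named, orange points passed only with the sample id as a block, and white points passed in neither fit. Medians are over all tested genes of a list, including 2 that are not drawn. Map3k8 and Cdkn1a lie left of 0 and Thbs1 lies right of it.

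Tgfb1, the gene of the TGF-beta isoform most used by leukocytes, lies on chromosome 7 (25687002 to 25705077, plus strand). It was at 276, 217 and 229 CPM in PM samples 1, 3 and 4, and at 206, 179 and 205 CPM in PH samples 1, 3 and 4. Every PM sample lay above every PH sample, and PM 1 was the highest. PM 1 also had the highest sum of macrophage markers (1710 CPM), whose part in the Tgfb1 values was not tested. At 0.29 ± 0.10 (SE) on the log2 scale it missed the threshold in the unblocked edgeR fit (adjusted p = 0.247). It passed with the block (0.28 ± 0.05, adjusted p = 8.0e-05), with within-id differences of 0.42, 0.28 and 0.16 for ids 1, 3 and 4, and also with no filter on low counts (adjusted p = 0.0131). Without PM 1 and PH 3, the samples whose columns match libraries of both sequencing runs, the value was 0.11 (adjusted p = 0.413, edgeR without the block). That fit sets PM ids 3 and 4 against PH ids 1 and 4, so treatment cannot be told apart from a difference between ids 1 and 3. The other isoforms were lower in level and did not pass, with Tgfb2 at 12.9 ± 3.73 CPM with PM and 14.2 ± 2.20 CPM with PH, and Tgfb3 at 0.610 ± 0.0391 CPM with PM and 0.701 ± 0.190 CPM with PH (SD, n = 3).

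The 2 cytokine genes lay in opposite directions, and the ratio of Il10 to Tgfb1 counts was 0.151, 0.229 and 0.200 in PM samples 1, 3 and 4, and 0.285, 0.413 and 0.391 in PH samples 1, 3 and 4. All PM ratios lay below all PH ratios, and id 1 had the lowest ratio in each group. The log2 difference was -0.91 (0.531-fold), with p = 0.10 by the exact two-sided permutation test (0.20 adjusted over 4 ratios). It lay between -1.08 and -0.74 when 1 sample was left out.

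**Figure D4:**
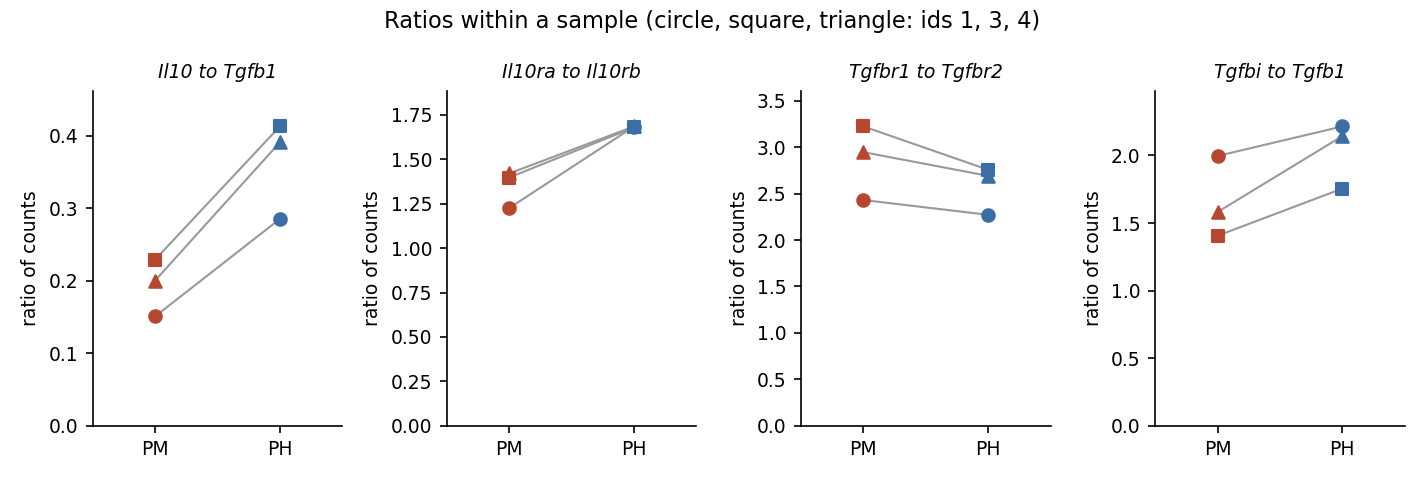
Ratios of counts between 2 genes of the same sample, with PM left of PH. Circles, squares and triangles are sample ids 1, 3 and 4, and lines join samples of the same id. The ratios of Il10 to Tgfb1 and of Il10ra to Il10rb lay lower in all 3 PM samples than in any PH sample, and the groups overlapped for Tgfbr1 to Tgfbr2 and for Tgfbi to Tgfb1.

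Proteins that keep TGF-beta latent or activate it were in a list of 15 ligand, latency and activation genes, of which 13 were tested, 1 rose and 0 fell. Thbs1, which encodes thrombospondin-1, an activator of latent TGF-beta and an adhesion protein, rose. It was at 3653, 3830 and 3609 CPM in PM samples, against 2390, 1882 and 2317 CPM in PH samples, with no overlap. This was a log2 difference of 0.75 ± 0.10 (SE; adjusted p = 0.00730, edgeR), and the call held when any 1 sample was left out (adjusted p at most 0.0435). Antisense Gm29233 covers 3.198% of its exon bases. With the block 3 of the list rose and 2 fell, and the list's median without it was 0.04. Of all genes tested, 2.34% passed without the block and 15.3% with it. Lrrc32, which holds latent TGF-beta at the cell surface, was at 0.49 ± 0.13 on the log2 scale (adjusted p = 0.108, and 4.4e-05 with the block). The integrin chains that bind and activate latent TGF-beta lay the other way, with Itgb8 at -0.47 ± 0.11 (adjusted p = 0.0771, and 2.4e-04 with the block) and Itgav at -0.37 ± 0.09 (adjusted p = 0.0896, and 3.2e-05 with the block). Itgb8 was at 51.0, 59.0 and 47.8 CPM in PM samples, against 84.3, 66.7 and 67.0 CPM in PH samples, with no overlap.

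The signalling receptors of TGF-beta did not pass in either fit. Tgfbr1, the type I receptor kinase (chromosome 4, 47353222 to 47414931, plus strand), was at 63.8, 67.8 and 72.2 CPM in PM samples 1, 3 and 4, and at 63.7, 63.8 and 69.8 CPM in PH samples 1, 3 and 4. Its log2 fold change was 0.04 ± 0.07 (SE, adjusted p = 0.846, edgeR). Tgfbr2, the ligand-binding type II receptor (chromosome 9, 116084293 to 116175360, minus strand), was at 26.2, 21.0 and 24.5 CPM in PM samples, against 28.0, 23.1 and 25.9 CPM in PH samples. The groups overlapped for both genes, and Tgfbr2 was lower with PM in 3 of 3 ids. Its log2 fold change was -0.11 ± 0.10 (SE, adjusted p = 0.714, and 0.358 with the block). The ratio of Tgfbr1 to Tgfbr2 counts was 2.43, 3.23 and 2.95 in PM samples, against 2.27, 2.76 and 2.69 in PH samples, with overlap (log2 difference 0.15, p = 0.40, exact two-sided permutation test, and 0.40 adjusted over 4 ratios). The difference was 0.062 without PM 3 and 0.27 without PM 1 (exact p = 0.70 and 0.10), and it was 0.064 without PH 1 (exact p = 0.70).

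For 10 other receptors and co-receptors of the family, all tested, with a median of -0.11, 0 passed by edgeR without the block (2 had an unadjusted p under 0.05, and 0 passed by DESeq2). Of all genes tested by edgeR, 2.34% passed without the block and 15.3% with it. Without the block 1890 of 14382 had an unadjusted p under 0.05, and 580 of 27765 passed by DESeq2. With the block the co-receptor Tgfbr3 was higher (0.33 ± 0.21 without the block, adjusted p = 0.573, and 0.0414 with it) and the activin receptor Acvr1b was lower (-0.31 ± 0.11, adjusted p = 0.254, and 2.6e-05 with it). The 15 SMAD genes and their regulators were all tested and 0 passed by edgeR, with or without the block. Without the block 0 had an unadjusted p under 0.05, and 0 passed by DESeq2. In the blocked edgeR fit the lowest unadjusted p of the list was 0.0357. The inhibitory Smad7, itself a target of TGF-beta, was at 16.5 ± 0.929 CPM with PM and 15.9 ± 0.402 CPM with PH (SD, n = 3). Log2 fold changes of this list ran from -0.49 to 0.23, with a median of 0.03.

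Tgfbi (chromosome 13, 56609586 to 56639358, plus strand) varied more between ids than between treatments. It was at 550, 305 and 362 CPM in PM samples 1, 3 and 4, and at 456, 314 and 440 CPM in PH samples 1, 3 and 4. Id 1 was the highest in each group and id 3 the lowest, and the groups overlapped. The log2 fold change was 0.0059 ± 0.22 (SE, adjusted p = 0.998, edgeR), with within-id differences of 0.27, -0.044 and -0.28. The summed macrophage markers were also highest in id 1, at 1710 CPM in PM 1 (1223 and 1247 CPM in PM 3 and PM 4) and 1535 CPM in PH 1 (1072 and 1193 CPM in PH 3 and PH 4), and their part in the Tgfbi values was not tested. Without PM 1 and PH 3 the log2 fold change was -0.43 (adjusted p = 0.0305), and with the block and without id 1 it was -0.18 (adjusted p = 0.00149, with 1 residual degree of freedom). The value of -0.43 sets PM ids 3 and 4 against PH ids 1 and 4 with no block. Treatment and the difference between ids 1 and 3 cannot be told apart in it. The ratio of Tgfbi to Tgfb1 counts was 1.996, 1.41 and 1.58 in PM samples, against 2.21, 1.75 and 2.14 in PH samples, lower with PM in 3 of 3 ids but with overlap (log2 difference -0.30, p = 0.20, exact two-sided permutation test, and 0.267 adjusted over 4 ratios). It was -0.44 to -0.19 when 1 sample was left out (exact p = 0.20 to 0.40).

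Other genes known to be induced by TGF-beta numbered 17, all tested, of which 2 fell and 0 rose, with a median of -0.03. Cdkn1a, which encodes the cell cycle inhibitor p21, was at 559, 585 and 568 CPM in PM samples, against 754, 729 and 759 CPM in PH samples. Its log2 fold change was -0.39 ± 0.06 (SE, adjusted p = 0.0157, edgeR), 10.04% of its exon bases lie opposite 1700023B13Rik, and the call was lost without PM 3, PM 4 or PH 4 (adjusted p = 0.0701, 0.105 and 0.118). With the block 4 fell and 0 rose (of all genes tested, 2.34% passed without the block and 15.3% with it). The further ones were Ldlrad4 (-0.46 ± 0.14, adjusted p = 0.163, and 0.00531 with the block) and Pmepa1 (-0.21 ± 0.08, adjusted p = 0.307, and 0.0310 with the block), both inhibitors of TGF-beta signalling. Cdkn1a and Thbs1 also respond to many other stimuli.

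Over all 8 lists, 91 of 102 genes were tested, and 1 rose and 4 fell (5.49%, against 2.34% of all genes tested). With the block 9 rose and 19 fell (30.8%, against 15.3%).

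Promoter sequence from RefSeq (GRCm38.p6, from 250 bases before to 50 after a transcription start) was matched for 4 of the 7 genes, in 5 windows. The windows of Tgfb1, the one of these 4 genes that passed in the blocked fit, and of Tgfbi, which holds a match to an interferon-stimulated response element core, are shown 5′ to 3′ on the plus strand. Capitals mark that match.
Tgfb1 (chr7:25686752-25687051): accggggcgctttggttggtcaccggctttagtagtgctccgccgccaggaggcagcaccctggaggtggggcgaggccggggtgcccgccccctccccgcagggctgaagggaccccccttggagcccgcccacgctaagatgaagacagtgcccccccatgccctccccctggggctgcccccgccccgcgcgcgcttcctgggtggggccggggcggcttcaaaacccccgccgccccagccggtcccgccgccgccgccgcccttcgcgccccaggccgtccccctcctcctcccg
Tgfbi (chr13:56609336-56609635): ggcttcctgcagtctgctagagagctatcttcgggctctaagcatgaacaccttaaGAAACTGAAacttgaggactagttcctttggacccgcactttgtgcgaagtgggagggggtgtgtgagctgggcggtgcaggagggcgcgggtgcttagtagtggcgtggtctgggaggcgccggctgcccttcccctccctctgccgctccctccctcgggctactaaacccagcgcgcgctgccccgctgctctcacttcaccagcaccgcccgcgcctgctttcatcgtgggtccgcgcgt
The interferon-stimulated core GAAANNGAA, searched on both strands, occurs in 8.56% of 32851 such windows, and the match in Tgfbi begins at position -194 from the start. The NF-kB core GGANTTTCC (1.25% of windows) was found in Tgfbr2 only and the SMAD box CAGACA (21.0%) in a window of Tgfbr1 only. TTCNNNGAA, TGANTCA and TGACG (8.30%, 7.81% and 20.8% of windows) were in none of the 5. The 3 matches lie in 3 different windows and do not overlap. Such matches describe letters, not occupied sites.

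Levels of different genes were compared per length, as TPM, computed from the counts and the table's gene lengths and scaled to the same total in each sample. Tgfbi had 328 ± 96.0 TPM with PM and 327 ± 64.0 TPM with PH (SD, n = 3), and Tgfb1 had 243 ± 26.0 TPM with PM and 199 ± 16.6 TPM with PH. Il10 had 76.8 ± 8.20 TPM with PM and 119 ± 20.2 TPM with PH, Il10rb 89.5 ± 6.09 TPM with PM and 82.9 ± 4.83 TPM with PH, and Il10ra 63.6 ± 1.11 TPM with PM and 73.8 ± 4.36 TPM with PH. The TGF-beta receptors were lowest, with Tgfbr1 at 23.3 ± 1.91 TPM with PM and 22.6 ± 1.54 TPM with PH, and Tgfbr2 at 6.42 ± 0.627 TPM with PM and 6.91 ± 0.654 TPM with PH. In this order by overall mean, the ranges over the 6 samples overlapped between Tgfbi and Tgfb1 and between Il10 and Il10rb, and not between the other neighbours. The computed order of Il10 and Il10rb differed between the groups, which was not tested. With PM, Il10 (68.1 to 84.3 TPM) lay below Il10rb (84.7 to 96.3 TPM), and with PH, Il10 (97.5 to 137 TPM) lay above Il10rb (79.9 to 88.5 TPM). Il10rb shares 30.8% of its exon bases with Gm21970, and how reads on those bases were counted is not known. The level of Il10rb per length, and with it this order, is therefore uncertain. Tgfbi stood above 96.9% and Tgfbr2 above 37.5% of the genes tested.

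**Figure D5:**
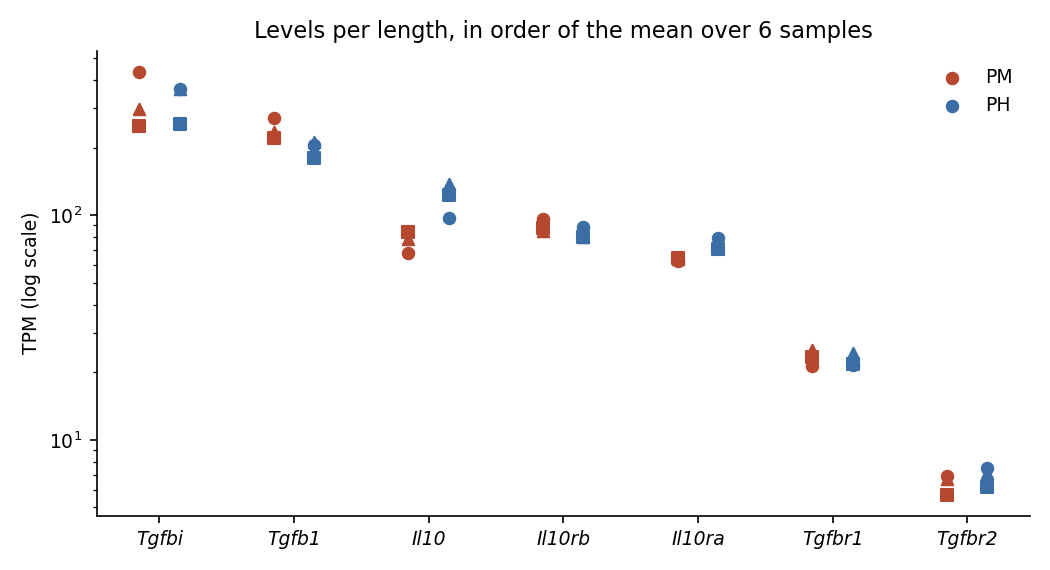
Levels of the 7 genes in TPM on a log axis, 1 point per sample (circle, square and triangle for ids 1, 3 and 4), with PM left of PH for each gene. Tgfbi and Tgfb1 lay highest and Tgfbr2 lowest, and Il10 lay below Il10rb in the PM samples but above it in the PH samples. The level of Il10rb is uncertain, because 30.8% of its exon bases are shared with Gm21970.

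The genes whose pattern over the 6 samples was most like that of each cytokine were found by the root mean square (RMS) difference of centred log2 CPM, among 14375 genes. For Il10 they were Chil1, a chitinase-like protein (0.0846), Ndrg1, known for its induction in hypoxia (0.0853), and Sprr2d, a small proline-rich protein (0.0877), where Il10 itself had an SD of 0.35 over the samples. Ndrg1 was at 252, 292 and 302 CPM in PM samples, against 398, 450 and 461 CPM in PH samples. Its values are uncertain, because 19.2% of its exon bases lie opposite Gm17035 and Gm2895. For Tgfb1, with an SD of 0.19, they were Dnal4, a dynein light chain (0.0236), Myo1f, a class I myosin of leukocytes (0.0241), and 5031439G07Rik (0.0292). Myo1f was at 474, 385 and 394 CPM in PM samples, against 366, 321 and 362 CPM in PH samples. With 6 samples these are descriptions of likeness, without a test.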

How the data were processed

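RNA from BMDCs was made into poly(A) libraries with a stranded kit, per the labels' protocols. The authors deposited whole-number read counts per gene, without normalization. Trimmomatic, STAR 2.5.3a, featureCounts 1.6.4 and the build GRCm38 were used, per the submitters' processing notes; the sources used here do not give the annotation release or the strand setting. Values of genes that share exon bases with another gene are therefore uncertain. The series lists 8 libraries, and the table has 6 count columns. By name, 2 columns (PM 1 and PH 3) match libraries of both run 1 and run 2, and whether they hold 1 run or the sum is not given. Each column was used as 1 sample. Nothing in the labels ties a sample id to a separate animal or culture, and p-values thus measure only the spread between these samples, which may be technical.

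Tests on counts used edgeR 4.0.16 in R 4.3.3 after filterByExpr (minimum count 10), with TMM scaling, glmQLFit with robust estimates and glmQLFTest. P-values were Benjamini-Hochberg adjusted over all 14382 genes tested, with a threshold of 0.05. The SE was derived from the F value. The scripts were tested on simulated counts. Sample ids were taken to pair the samples because deviations from the group means correlated between same-id samples (0.44, 0.32 and 0.24 for ids 1, 3 and 4), which rests on the counts and not on the labels. The main design has no block, and blocked values are given where they change a call or a count. Between any 2 columns the counts differed by more than sampling noise (lowest chi-square per degree of freedom 4.63). Alternatives were the block, DESeq2 1.42.0, DESeq2 size factors in edgeR, other filters on low counts, leaving out each sample or id, and leaving out PM 1 with PH 3. CPM used TMM-scaled totals. Positions and exon overlaps come from the deposited table.

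The 7 genes, the pathway and marker lists and the naming rule were chosen with earlier results of these data known. Named were the 7 genes, list genes past the threshold (some are counted but not reported here by name), up to 2 per list that passed only with the block, markers that passed, and the 3 genes most like Il10 and the 3 most like Tgfb1. Itgav, Stat3, Smad7, Tgfb2, Tgfb3, the dendritic cell genes, the other tested neutrophil markers and the markers that passed only with the block were named in addition, with their values already seen.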

Additional observations from a re-analysis of the deposited data

How the results depend on the processing

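The number of genes past the threshold was 337, and 2197 with the replicate block, 846 with no low-count filter, 580 by DESeq2 and 629 without PM 1 and PH 3. It was 142 to 417 when 1 sample was left out, and 2145, 1580 and 1529 with the block and without id 1, 3 or 4. Genes tested numbered 14382 with or without the block, 27765 with no low-count filter and by DESeq2, and 14921 without PM 1 and PH 3. They numbered 14474 to 14927 when 1 sample was left out, and 14958, 14753 and 14140 with the block and without id 1, 3 or 4. The counts below move together with these numbers over all genes, and whether they move further was not tested. Of the 7 genes, 1 passed, against 3 with the block, 2 with no low-count filter, 0 to 1 when 1 sample was left out, and 4, 3 and 3 with the block and without id 1, 3 or 4. Of the pathway genes 5 passed, against 28 with the block, 16 with no low-count filter, 10 by DESeq2, 10 without PM 1 and PH 3, 3 to 7 when 1 sample was left out, and 32, 21 and 22 with the block and without id 1, 3 or 4. Il10 passed in 9 of 15 alternatives and was lower in all 15. Its log2 fold change was -0.77 to -0.53 when 1 sample was left out and -0.56 without PM 1 and PH 3 (adjusted p = 0.130, not past the threshold). Il10ra passed with the block (-0.21) and with the block without id 1, 3 or 4 (-0.17, -0.25 and -0.24). Tgfb1 passed with the block (0.28), with no low-count filter (0.29) and with the block without id 1, 3 or 4 (0.20, 0.28 and 0.35). Tgfbr1 was -0.0013 to 0.092 when 1 sample was left out. Tgfbi, near 0 with all samples, was -0.019 with the block, -5.9e-05 with a filter of 1 CPM in 3 samples, -0.18 and -0.012 with the block and without id 1 or 3, -0.43 without PM 1 and PH 3, and -0.28 to 0.18 when 1 sample was left out. The cause of these differences was not tested. Leaving out PM 1 and PH 3 sets PM ids 3 and 4 against PH ids 1 and 4, so treatment and id cannot be told apart there. Il10rb and Tgfbr2 kept their direction and passed in none of the 15 alternatives, but their size moved: Il10rb was 0.027 (without PM 1) to 0.16 when 1 sample was left out and 0.0077 without PM 1 and PH 3, and Tgfbr2 was -0.19 to -0.028 (without PM 3) when 1 sample was left out and -0.25 without PM 1 and PH 3. Thbs1 passed in all 15. For the within-sample ratios, the paired sign-flip over 3 ids cannot go below p = 0.25 (exact), which each of the 4 ratios reached. The shallowest sample, PH 3, has 11624367 counts, which limits the genes with few reads, such as Il22, Tgfb3, Mrc1, Clec9a and Fcgr1.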
